A study of Mus musculus with 12 samples.

Results

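Amino acid transporters of 6 solute carrier families (SLC1, SLC3, SLC7, SLC36, SLC38 and SLC43) were examined in hearts that lack the mitochondrial RNase P nuclease MRPP3 in muscle. Members were all loci whose gene symbol begins with Slc1a, Slc3a, Slc7a, Slc36a, Slc38a or Slc43a and ends in a number, which gave 41 of the 44450 loci listed. Slc7a5 was not analysed here. The 3 knockout libraries came from hearts of 11-week-old C57BL/6N mice of genotype Mrpp3 loxP/loxP, +/Ckmm, in which Cre is driven by the muscle creatine kinase promoter. The 3 control libraries came from hearts of the same age and strain with the genotype Mrpp3 loxP/loxP, so both groups carried the floxed gene and only the knockouts carried Cre. An effect of Cre therefore cannot be told apart from that of the gene, and heart cells in which the promoter is inactive keep Mrpp3. The assay was sequencing of total heart RNA after rRNA removal, and levels are given as FPKM, which corrects fragment numbers for the length of the transcript and the size of the library, so that genes can be compared. Whether each library is a separate animal is not said in the labels, and a p-value here reflects only how far these libraries spread.

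Amino acids cross cell membranes through carriers that differ in substrate and in driving force. SLC1 carriers couple uptake of glutamate or exchange of small neutral amino acids to sodium. SLC7 proteins fall into the CAT carriers of arginine and lysine and into light chains, which reach the cell surface bound to a glycoprotein heavy chain of the SLC3 family. SLC38 carriers take up glutamine, alanine and other small neutral amino acids (systems A and N) or act in lysosomes. Some SLC36 carriers move small amino acids together with protons, and SLC43 carriers are facilitators. Several of these genes are known targets of ATF4, the transcription factor of the amino acid response, which binds composite C/EBP-ATF elements together with C/EBP partners.

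The targeted gene was low in every library labelled knockout. Prorp, the current symbol of Mrpp3 (listed as 1110008L16Rik), had 0.441, 0.701 and 0.555 FPKM in knockouts, against 3.49, 2.64 and 3.23 FPKM in controls (log2 fold change -1.77, SE 0.17, limma adjusted p = 0.00063). The files hold no read totals, but the steps between low values give an estimate of relative depth, which would also take in any scaling between libraries. With control replicate 1 taken as 1, the knockouts stood at 2.57, 2.06 and 2.19, and control replicates 2 and 3 at 1.32 and 1.35. Low values and zeros are therefore less certain in controls. The 8 ventricular cardiomyocyte markers summed to 7613 to 16600 FPKM in knockouts and 34515 to 39735 FPKM in controls, so heart muscle was well represented in all libraries. Knockout replicate 2 stood apart. Its 6 atrial markers summed to 14373 FPKM, against 2073 and 2335 in the other knockouts and 42.5 to 122 in controls, and its 6 erythroid markers to 21898 FPKM, against 622 and 2010 in the other knockouts and 1570 to 2902 in controls. Nppa made up most of each atrial sum, with 1948, 10527 and 2327 FPKM in knockouts. In knockout replicate 3, Myl7, Myl4, Sln and Mybphl lay within the range of the controls, while Bmp10 (4.19 FPKM) lay above it. In these bulk samples fewer cells of a type and less RNA per cell cannot be told apart.

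Of the 41 members, 24 reached 1 FPKM in 3 or more libraries and were tested, within a fit over all 12181 loci that did so. Values were compared as log2(FPKM + 0.5) with limma, and a locus was called at an adjusted p under 0.05, adjusted over all loci. Of the 24 loci, 9 rose in the knockout, 2 fell and 13 did not pass. Across all loci 16.1% rose and 19.5% fell, together 35.7%. The median log2 fold change was 0.45 over the 24 members and -0.02 over all loci. By family, 3 of 9 tested SLC38 loci rose and 1 fell, 2 of 5 SLC7 and 2 of 4 SLC1 loci rose, 1 of 3 SLC36 loci rose and 1 fell, the 1 tested SLC3 locus rose, and neither of the 2 SLC43 loci passed. Of the 9 that rose, 4 (Slc7a3, Slc7a11, Slc1a4 and Slc1a3) reached 1 FPKM in no control and so were tested only through the knockout libraries, where they had to be high. Of the other 20 loci, 5 rose and 2 fell. In a fit of only the loci at 1 FPKM or more in every library, 5 of 16 members rose and 2 (Slc38a3 and Slc38a9) fell, against 15.9% and 19.6% of the 10607 loci of that kind. Called rises with a log2 fold change above 2 made up 1.4% of all loci and included 5 members. Of these 5, Slc7a3, Slc7a11 and Slc1a4 were tested only through the knockout libraries, while Slc38a1 and Slc3a2 were not. Called falls below -2 made up 1.1% and included Slc36a2, 1 of the 24. Every knockout library lay above every control for 14 of the 24 members and below every control for 4, against 23.6% and 28.7% of all loci. Slc7a3, Slc7a11, Slc1a4 and Slc1a3 were among the 14, and for them the filter fixed this order in advance.

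The library scale matters for the smaller differences. With every library scaled to the same summed FPKM, the median log2 fold change of all loci moved from -0.02 to 0.20, 26.5% of loci rose and 11.5% fell, and 15 members rose and 2 fell. The 6 members added by this scaling, all higher, were Slc7a1 (log2 fold change 0.96, limma adjusted p = 0.028), Slc1a5 (0.73, limma adjusted p = 0.043), Slc7a6 (0.68, limma adjusted p = 0.019), Slc43a2 (0.67, limma adjusted p = 0.014), Slc43a3 (0.57, limma adjusted p = 0.033) and Slc38a10 (0.43, limma adjusted p = 0.036). The scale did not decide the calls of the largest changes: Slc7a3, Slc7a11, Slc1a4, Slc38a1, Slc3a2, Slc1a3 and Slc36a2 kept their call in every alternative in which they were tested.

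Marker genes of several cell types moved with genotype beside these transporters. Of the ventricular cardiomyocyte markers 7 of 8 fell, and of the macrophage and fibroblast markers 7 of 11 and 4 of 7 rose. Across all loci 16.1% rose and 19.5% fell. Of these macrophage markers, Itgam and Fcgr1 reached 1 FPKM in no control. The macrophage markers summed to 212 to 241 FPKM in knockouts and 147 to 159 FPKM in controls. The fibroblast markers summed to 336 to 570 FPKM in knockouts and 325 to 401 FPKM in controls, so these sums overlapped. Those that rose were Col1a1, Col1a2, Col3a1 and Tcf21, while Lum (log2 fold change 0.63), Pdgfra (-0.26) and Dcn (-0.31) did not pass. Of 6 atrial markers 3 were tested and 1 (Nppa) rose, and of 6 smooth muscle and pericyte markers 2 (Pdgfrb and Cspg4) rose and 1 (Rgs5) fell. None of the 6 endothelial, 5 tested erythroid and 2 tested neutrophil markers passed, and the lymphocyte and adipocyte markers were below the filter. Among the neuron and Schwann cell markers, Syt1 was at 0 in every library. The part of these cell types in the members' results was not tested.

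**Figure D1:**
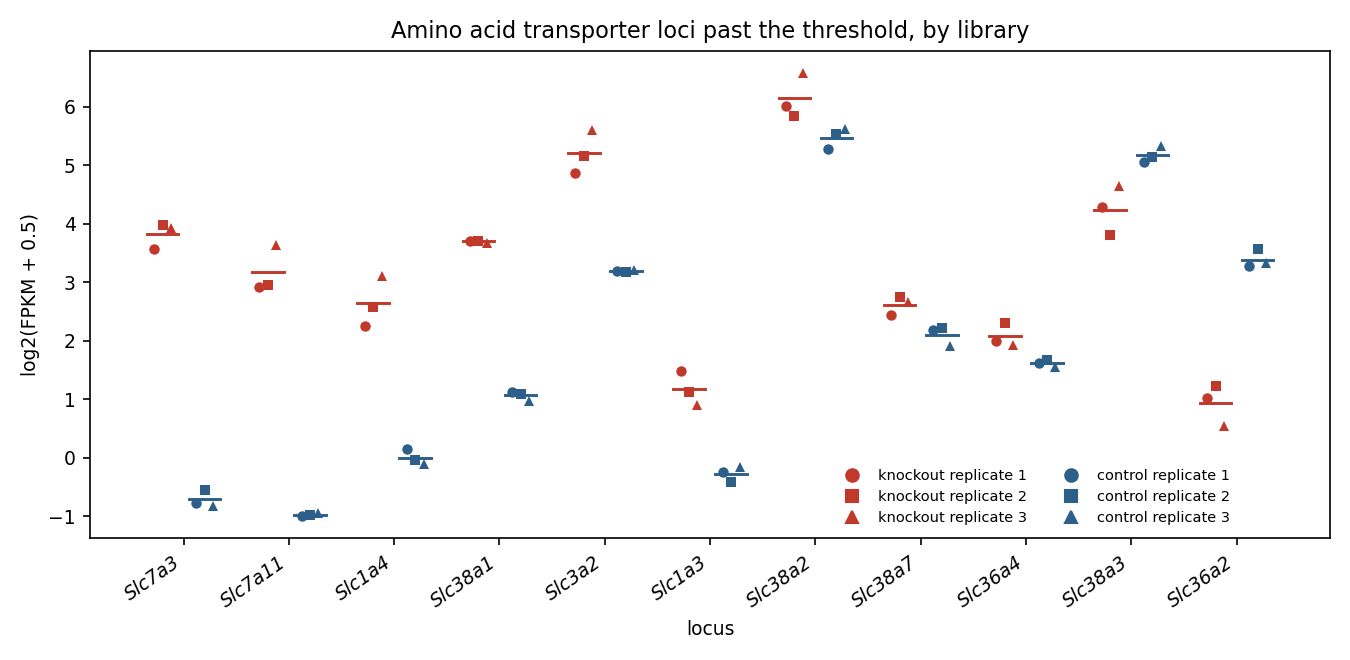
Level of each of the 11 called amino acid transporter loci by library, as log2(FPKM + 0.5), with knockouts in red left of controls in blue. Symbols mark the replicates and horizontal lines the mean of 3 libraries; the groups do not overlap at any of these loci, and Slc7a3 and Slc7a11 lie near the bottom of the axis in the controls.

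Promoter windows are shown for the called members that hold the core of the composite element. RefSeq windows of 300 bases, from 250 bases before to 50 after a gene's start (GRCm38.p6), were found for 31 of the 41 members and 7 of the 11 called ones. The windows of Slc36a2, Slc38a1, Slc38a3 and Slc7a3 were not among them. The motif searched was TGATGNAA, the shared core of C/EBP-ATF elements, on both strands. Among the called members it was present in the windows of Slc7a11 and Slc1a4, which are printed 5′ to 3′ on the gene's strand with the motif in capitals.
Slc7a11: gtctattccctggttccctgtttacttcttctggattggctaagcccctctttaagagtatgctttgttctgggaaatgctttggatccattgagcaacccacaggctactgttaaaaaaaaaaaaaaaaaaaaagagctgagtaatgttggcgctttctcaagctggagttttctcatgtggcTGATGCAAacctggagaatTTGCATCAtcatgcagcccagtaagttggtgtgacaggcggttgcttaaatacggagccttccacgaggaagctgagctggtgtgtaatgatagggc
Slc1a4: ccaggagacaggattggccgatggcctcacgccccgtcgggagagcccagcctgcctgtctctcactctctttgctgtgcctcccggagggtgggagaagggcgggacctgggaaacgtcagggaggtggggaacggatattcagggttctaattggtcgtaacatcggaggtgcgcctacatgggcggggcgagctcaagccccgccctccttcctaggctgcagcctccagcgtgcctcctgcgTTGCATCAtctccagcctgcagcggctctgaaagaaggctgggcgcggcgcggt
The Slc7a11 window is chr3:50443564-50443863 on the minus strand, and it holds the motif on both strands, at bases 185 to 192 and, reversed, at bases 204 to 211. It belongs to a start inside the annotated span of Slc7a11 given further on, not to the outer end of that span. The Slc1a4 window is chr11:20332664-20332963 on the minus strand, with the reversed motif at bases 247 to 254, across the start of the gene. All 3 matches read TGATGCAA on the motif's strand. The windows of the other 5 called members with a sequence (Slc3a2, Slc1a3, Slc38a2, Slc38a7 and Slc36a4) do not hold these letters. The motif is present in 3.97% of all 32851 windows, and in 4 of the 42 member windows, the other 2 being alternative starts of Slc7a7. Those 2 windows overlap and share a match at the same site. By gene, the motif is in 3 of the 31 members and in 1219 of all 27025 genes with a window. The full cAMP response element, TGACGTCA, is in 1.79% of all windows and in 1 member window, that of Slc38a6. A match describes the letters in this window and not a bound site.

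The heavy chain and the cystine light chain were both higher. Slc3a2 encodes 4F2hc (CD98), the heavy chain that carries several light chains to the surface, and had 28.6, 35.2 and 48.0 FPKM in knockouts, against 8.68, 8.49 and 8.80 FPKM in controls. The controls differed by little, and each knockout lay above them. On the log2 scale the change was 2.01 (SE 0.19, limma adjusted p = 0.00051). Slc3a2 lies on chromosome 19 at 8706882 to 8723369. Among the 41 members it took 12.5% ± 1.42 of the summed FPKM in knockouts and 4.44% ± 0.161 in controls (SD, n = 3 each), and by mean level it stood second in knockouts and sixth in controls. The other heavy chain, Slc3a1 (rBAT), was below the filter, with at most 0.0573 FPKM in knockouts and 0.0836 FPKM in controls.

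Slc7a11 encodes xCT, the light chain that brings in cystine in exchange for glutamate. It had 7.03, 7.23 and 12.0 FPKM in knockouts and was listed at 0, 0.00746 and 0.0220 FPKM in controls. The controls were at or near 0, and all knockouts were far above them. Its log2 change of 4.14 (SE 0.22, limma adjusted p = 7.9e-05) depends on the pseudocount, and was 6.29 with a pseudocount of 0.1 and 3.23 with 1. By this measure Slc7a11 ranked 23rd of the 12181 loci from the top. The gene spans 50364936 to 50499087 on chromosome 3.

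The other light chains did not pass the test. Slc7a6 (y+LAT2), a light chain that exchanges cationic for neutral amino acids, had 4.62, 3.30 and 5.39 FPKM in knockouts and 3.01, 3.11 and 3.15 FPKM in controls. Its groups did not overlap, and its log2 fold change was 0.44 (SE 0.18, limma adjusted p = 0.090). It passed without knockout replicate 2 (log2 fold change 0.61, limma adjusted p = 0.013) and with array weights (0.50, limma adjusted p = 0.0064). Scaling libraries to the same sum also brought Slc7a6 past the threshold (0.68, limma adjusted p = 0.019). The use of strand in counting is not given in the sources used here, and Slc7a6os, named as its opposite-strand transcript, had 3.77 to 4.57 FPKM in knockouts and 3.23 to 4.55 FPKM in controls.

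Slc7a7 (y+LAT1), the second light chain of that type, differed more between knockouts than between groups. Its level was 1.56, 11.7 and 1.81 FPKM in knockouts, against 1.01, 0.953 and 0.721 FPKM in controls. Each knockout lay above each control, but replicate 2 was far above the other 2 knockouts. Its log2 change of 1.48 (SE 0.63, limma adjusted p = 0.10) became 0.65 without that replicate and then passed (limma adjusted p = 0.037). The 11 macrophage markers, of which 7 rose and none was at 0 in every library, summed to 212, 224 and 241 FPKM in knockouts and to 157, 159 and 147 FPKM in controls. Their sum in knockout replicate 2 lay between those of the other knockouts, while the erythroid and atrial sums of that library were the highest of all 6. The part of these cells in the Slc7a7 value was not tested. The RefSeq span of Slc7a7 overlaps that of Oxa1l, which fell (17.0 to 22.0 FPKM in knockouts, 30.9 to 31.5 FPKM in controls, limma adjusted p = 0.0081).

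**Figure D2:**
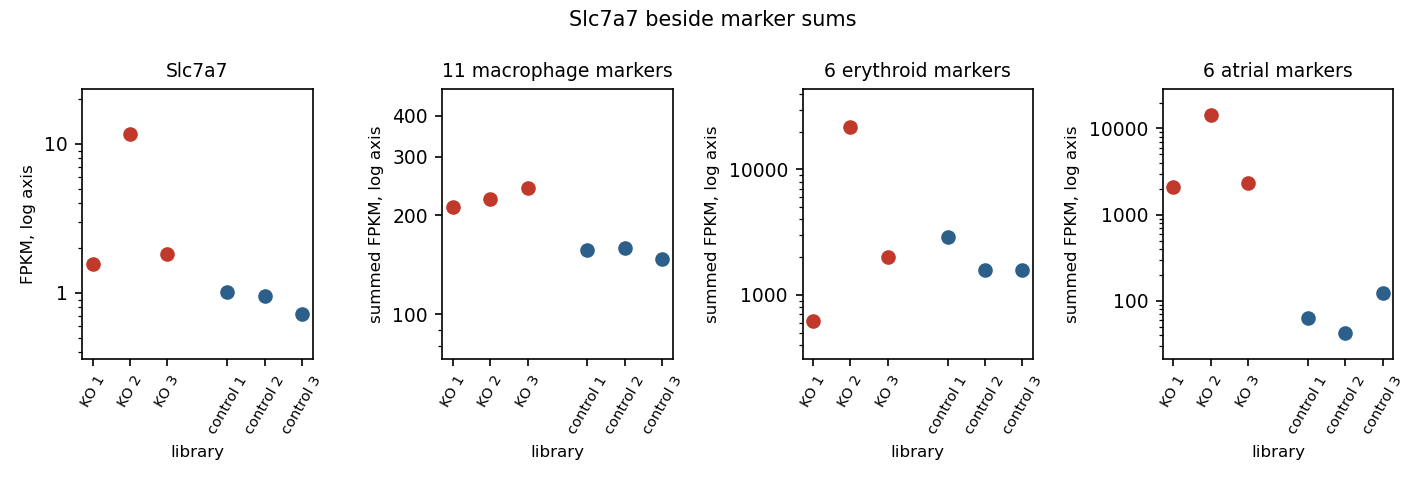
FPKM of Slc7a7 and summed FPKM of 11 macrophage, 6 erythroid and 6 atrial muscle markers in each library, on log axes (KO, knockout, in red; control in blue). Knockout replicate 2 is highest for Slc7a7 (11.7 FPKM), the erythroid sum (21898 FPKM) and the atrial sum (14373 FPKM), and lies between the other knockouts for the macrophage sum (224 FPKM). Nppa is most of the atrial sum in every library.

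Slc7a8 (LAT2) and Slc7a10 (Asc-1), light chains for neutral amino acids, were below the filter at 0.116 to 0.920 FPKM in knockouts and 0 to 0.463 FPKM in controls. Summed over Slc7a6, Slc7a7, Slc7a8, Slc7a10 and Slc7a11, the light chains reached 13.8, 23.4 and 20.1 FPKM in knockouts and 4.49, 4.47 and 4.19 FPKM in controls. Slc7a11 made up 51.0%, 30.9% and 59.5% of this sum in knockouts and at most 0.526% in controls. In controls Slc7a6 made up 67.2% to 75.3%. The sum leaves out Slc7a5, so it is not the whole pool of partners of Slc3a2.

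Among CAT carriers of cationic amino acids, Slc7a3 had the largest log2 fold change of all 24 members. Slc7a3 (CAT-3), which is best known from the brain, had 11.3, 15.2 and 14.7 FPKM in knockouts, against 0.0866, 0.186 and 0.0643 FPKM in controls. The knockouts lay close together and the controls were all near 0. Knockouts differed from controls by 4.53 in log2 units (SE 0.16, limma adjusted p = 2.2e-05), or 6.05 with a pseudocount of 0.1 and 3.72 with 1, and ranked 18th of the 12181 loci. Slc7a3 lies at 101079146 to 101090452 on chromosome X. Its RefSeq span overlaps that of Snx12, a separate locus in the files that did not pass (11.6 to 12.4 FPKM in knockouts, 7.03 to 11.6 FPKM in controls, limma adjusted p = 0.15).

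Slc7a1 (CAT-1), the widely expressed CAT carrier, did not pass the test. It had 10.4, 12.6 and 16.7 FPKM in knockouts and 11.0, 7.02 and 5.92 FPKM in controls. The highest control lay above the lowest knockout. The log2 fold change was 0.72 (SE 0.25, limma adjusted p = 0.060), and it passed without control replicate 1 (log2 fold change 0.96, limma adjusted p = 0.026). Slc7a2 (CAT-2) was just below the filter, at 0.966, 1.78 and 0.521 FPKM in knockouts and 1.16, 0.912 and 0.664 FPKM in controls. The share of each CAT carrier shows the same values another way. Slc7a3 held 49.9%, 51.2% and 45.9% of the summed FPKM of Slc7a1, Slc7a2 and Slc7a3 in knockouts and 0.708%, 2.29% and 0.968% in controls. The sum itself was 22.7, 29.6 and 31.9 FPKM in knockouts, against 12.2, 8.12 and 6.65 FPKM in controls.

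**Figure D3:**
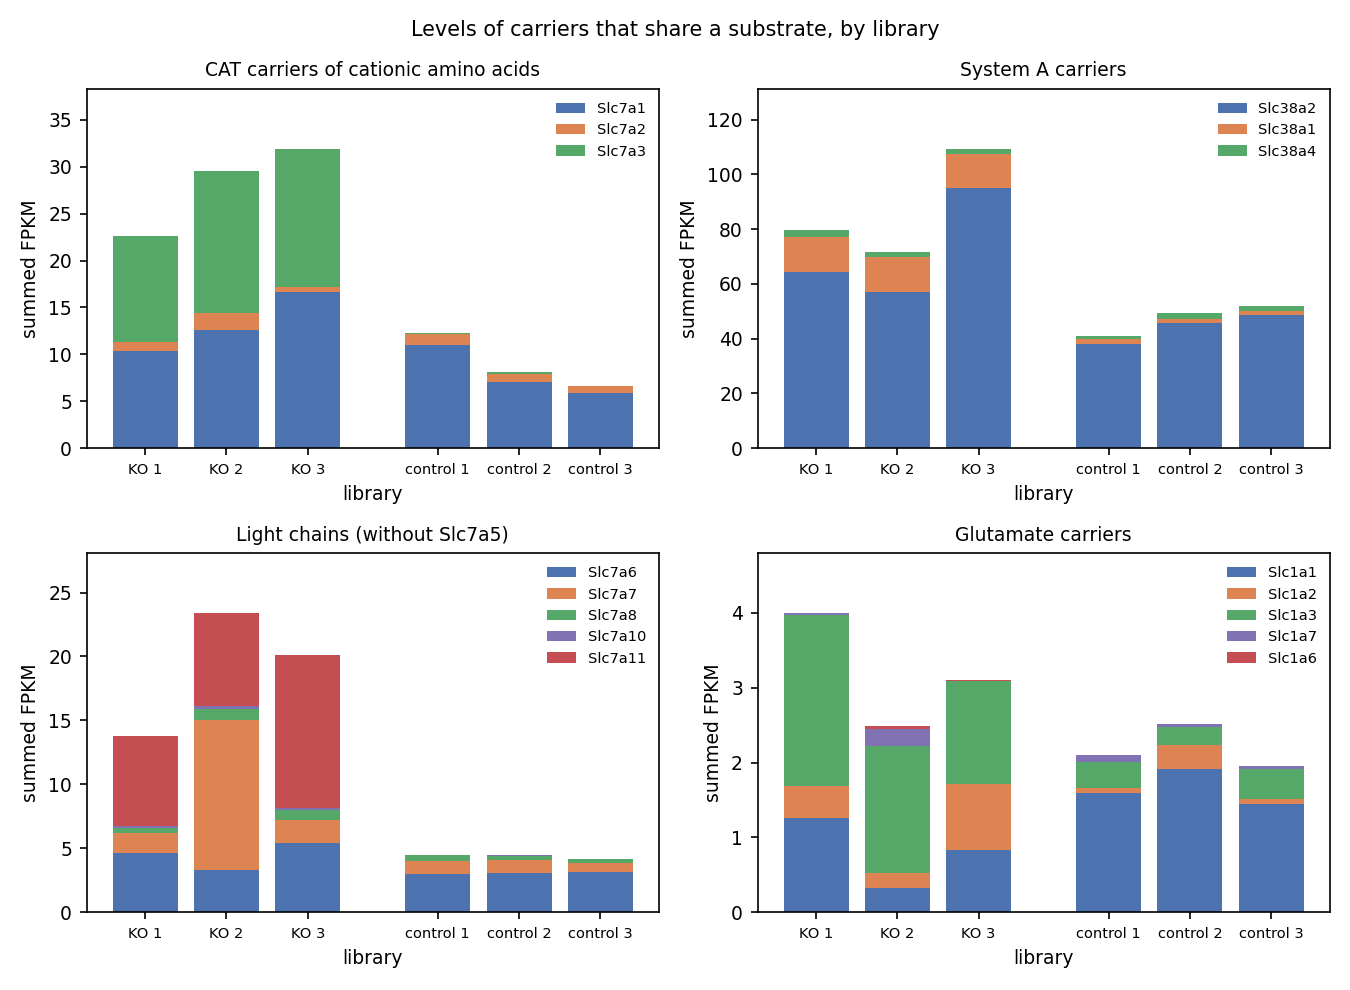
Stacked FPKM per library for 4 sets of carriers that share a substrate or partner, the CAT carriers, system A, the light chains without Slc7a5 and the glutamate carriers (KO, knockout). Slc7a3 fills 45.9% to 51.2% of the CAT bars in knockouts and at most 2.29% in controls, while Slc38a2 is the largest part of system A in all 6 libraries.

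For neutral amino acids, 1 of the ASCT exchangers of the SLC1 family rose. Slc1a4 (ASCT1), an exchanger of alanine, serine, cysteine and threonine, had 4.29, 5.50 and 8.12 FPKM in knockouts, against 0.604, 0.474 and 0.431 FPKM in controls. All knockouts were above all controls, with replicate 3 the highest. In log2 terms this was a change of 2.65 (SE 0.23, limma adjusted p = 0.00042). Slc1a4 spans 20302180 to 20332713 on chromosome 11. Slc1a5 (ASCT2), which also exchanges glutamine, had 8.26, 11.7 and 9.30 FPKM in knockouts and 8.31, 6.93 and 5.22 FPKM in controls. The groups overlapped, and the log2 fold change of 0.50 did not pass (unadjusted 95% interval 0.04 to 0.95, limma adjusted p = 0.085) unless libraries were scaled to the same sum. Slc1a4 made up 37.6% ± 7.91 of the FPKM of both genes in knockouts and 6.93% ± 0.623 in controls (SD, n = 3 each).

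System A had 2 of its 3 members higher. Slc38a1 (SNAT1), which takes up glutamine and alanine with sodium, had 12.6, 12.6 and 12.3 FPKM in knockouts, against 1.69, 1.64 and 1.46 FPKM in controls. Both groups were tight, including knockout replicate 2. On the log2 scale the change was 2.63 (SE 0.11, limma adjusted p = 3.6e-05). Slc38a2 (SNAT2), the system A carrier known to be induced by amino acid shortage, was the most abundant member in both groups. Its level was 64.4, 57.1 and 95.1 FPKM in knockouts and 38.2, 45.6 and 48.5 FPKM in controls. The groups did not overlap, but replicate 3 was well above the other knockouts. Its log2 change of 0.68 (SE 0.21, limma adjusted p = 0.040) was lost on leaving out any single control (limma adjusted p = 0.13, 0.097 and 0.076 for replicates 1 to 3) and without knockout replicate 1 (0.066) or 3 (0.052).

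Slc38a4 (SNAT4) had 2.61, 2.10 and 1.90 FPKM in knockouts and 1.09, 2.19 and 2.07 FPKM in controls, with overlapping groups (log2 fold change 0.27, limma adjusted p = 0.39). Slc38a1, Slc38a2 and Slc38a4 follow each other on chromosome 15 with no protein-coding gene between them, with gaps of 44.0 and 295 kb. Slc38a1 spans 96571418 to 96643438 and Slc38a2 96687392 to 96699728. Slc38a1 took 15.8%, 17.5% and 11.2% of the summed system A FPKM in knockouts and 2.80% to 4.12% in controls.

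Of the system N carriers, Slc38a3 fell. Slc38a3 (SNAT3), a glutamine carrier coupled to sodium and protons, had 19.0, 13.5 and 24.4 FPKM in knockouts, against 32.9, 34.6 and 39.9 FPKM in controls. Replicate 2 was the lowest knockout, and none reached the controls. Knockouts differed from controls by -0.93 in log2 units (SE 0.21, limma adjusted p = 0.014), and the call was lost without control replicate 3 (limma adjusted p = 0.055). Slc38a3 held 6.43% ± 1.44 of the summed FPKM of all 41 members in knockouts and 18.3% ± 1.95 in controls (SD, n = 3 each), where it was second only to Slc38a2. The gene lies at 107651154 to 107668968 on chromosome 9. The second system N carrier, Slc38a5 (SNAT5), was below the filter, with 0.0617 to 0.309 FPKM in knockouts and 0.0801 to 0.390 FPKM in controls. The ventricular cardiomyocyte markers were lower too, with a median log2 fold change of -1.66 over the 8 and none at 0 in every library. Across all loci 19.5% fell. The part of heart muscle RNA in the values of Slc38a3 and Slc36a2 was not tested.

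The glutamate carriers were low. Slc1a3 (EAAT1, GLAST) had 2.29, 1.69 and 1.37 FPKM in knockouts, against 0.348, 0.250 and 0.396 FPKM in controls. The groups were apart, with a log2 change of 1.44 (SE 0.21, limma adjusted p = 0.0026) that was 2.11 with a pseudocount of 0.1 and 1.05 with 1. Slc1a3 spans 8634124 to 8710807 on chromosome 15. Slc1a1 (EAAT3, EAAC1) had 1.26, 0.321 and 0.833 FPKM in knockouts, against 1.60, 1.91 and 1.45 FPKM in controls. All knockouts were below all controls, yet the log2 fold change of -0.79 did not pass (SE 0.29, limma adjusted p = 0.067), and it was -0.49 without knockout replicate 2. Without knockout replicate 1 it passed (log2 fold change -1.04, limma adjusted p = 0.033). Slc1a3 held 57.3%, 67.8% and 44.0% of the summed FPKM of the 5 glutamate carriers in knockouts and 9.92% to 20.2% in controls, and Slc1a1 held 12.9% to 31.5% in knockouts and 74.3% to 76.0% in controls. Slc1a2 (EAAT2, GLT-1), Slc1a6 and Slc1a7 were below the filter, at 0 to 0.886 FPKM in knockouts and 0 to 0.320 FPKM in controls.

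Of the 3 SLC36 carriers tested, 1 fell and 1 rose. Slc36a2 (PAT2), which moves glycine, alanine and proline with protons, had 1.53, 1.85 and 0.957 FPKM in knockouts, against 9.15, 11.3 and 9.56 FPKM in controls. The highest knockout was far below the lowest control. The log2 fold change was -2.45 (SE 0.20, limma adjusted p = 0.00036), which ranked 62nd of the 12181 loci from the bottom. Slc36a1 (PAT1) had 2.34, 2.50 and 2.14 FPKM in knockouts and 1.86, 2.11 and 1.50 FPKM in controls (log2 fold change 0.29, limma adjusted p = 0.18). Slc36a2, at 55158468 to 55185099 on chromosome 11, lies 19.2 kb from Slc36a1, with no gene that codes for protein in between, and 6.75 kb from Slc36a3, which was listed at 0 in all 6 libraries.

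Slc36a4 (PAT4), a carrier of proline and tryptophan, had 3.51, 4.44 and 3.32 FPKM in knockouts, against 2.58, 2.69 and 2.44 FPKM in controls. The groups did not overlap (log2 fold change 0.46, SE 0.14, limma adjusted p = 0.040). This call was lost on leaving out any single control (limma adjusted p = 0.098, 0.093 and 0.11 for replicates 1 to 3) and without knockout replicate 1 (0.069) or 2 (0.083). Slc36a4 lies on chromosome 9 at 15709738 to 15742388. Slc36a2 was 20.8%, 21.1% and 14.9% of the summed FPKM of Slc36a1, Slc36a2 and Slc36a4 in knockouts and 67.3% to 70.8% in controls, and that sum was 6.41 to 8.79 FPKM in knockouts and 13.5 to 16.1 FPKM in controls.

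The lysosomal SLC38 carriers had values on either side of 0. Slc38a7 (SNAT7), which exports glutamine and asparagine from lysosomes, had 4.92, 6.24 and 5.84 FPKM in knockouts, against 4.06, 4.18 and 3.24 FPKM in controls. The knockouts were all higher (log2 fold change 0.51, SE 0.15, limma adjusted p = 0.030), but the call was lost on leaving out any single control (limma adjusted p = 0.064, 0.060 and 0.10 for replicates 1 to 3) and without knockout replicate 2 (0.066) or 3 (0.065). Slc38a7 lies on chromosome 8 at 95835920 to 95853577. Slc38a9 (SNAT9), the lysosomal arginine sensor upstream of mTORC1, had 1.46, 1.43 and 1.45 FPKM in knockouts, against 2.24, 1.87 and 2.04 FPKM in controls. Its groups did not overlap, and its log2 fold change was -0.39 (SE 0.14, limma adjusted p = 0.065). Array weights brought it past the threshold (limma adjusted p = 0.035), as did a fit without a variance trend (0.038) and one on loci with 1 FPKM or more in every library (0.046). In the other 14 of 17 alternatives Slc38a9 did not pass. With libraries scaled to the same sum its log2 fold change was -0.23 (limma adjusted p = 0.34).

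The remaining tested members did not pass. Slc38a10 (SNAT10), an intracellular family member, was the third most abundant transporter in both groups, with 28.9, 33.7 and 29.4 FPKM in knockouts and 25.9, 27.9 and 25.7 FPKM in controls. Its log2 fold change of 0.20 had an unadjusted 95% interval of -0.07 to 0.48 (limma adjusted p = 0.21). Slc43a3, which carries purine bases and belongs to the SLC43 family by sequence, had 24.8, 28.7 and 36.1 FPKM in knockouts and 26.0, 23.8 and 20.1 FPKM in controls. The groups overlapped, and the interval was -0.06 to 0.74 (log2 fold change 0.34, limma adjusted p = 0.16). Slc43a2 (LAT4), a facilitator for leucine and related amino acids, had 4.44, 4.01 and 5.49 FPKM in knockouts and 3.14, 3.84 and 2.97 FPKM in controls (log2 fold change 0.43, limma adjusted p = 0.068), and it passed without knockout replicate 2 (0.046). Slc38a6 (log2 fold change -0.29, limma adjusted p = 0.20) and Slc38a11 (-0.57, limma adjusted p = 0.083), for which no role is given here, lay between 0.698 and 3.66 FPKM in knockouts and between 1.41 and 4.09 FPKM in controls. Each passed in 1 alternative only, Slc38a6 with array weights (limma adjusted p = 0.012) and Slc38a11 without knockout replicate 1 (0.040). With libraries scaled to the same sum their log2 fold changes were -0.09 (limma adjusted p = 0.70) and -0.48 (0.24). The span of Slc38a6 overlaps that of Trmt5, which fell to 7.56 to 9.81 FPKM in knockouts, against 16.6 to 19.9 FPKM in controls (limma adjusted p = 0.0021).

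**Figure D4:**
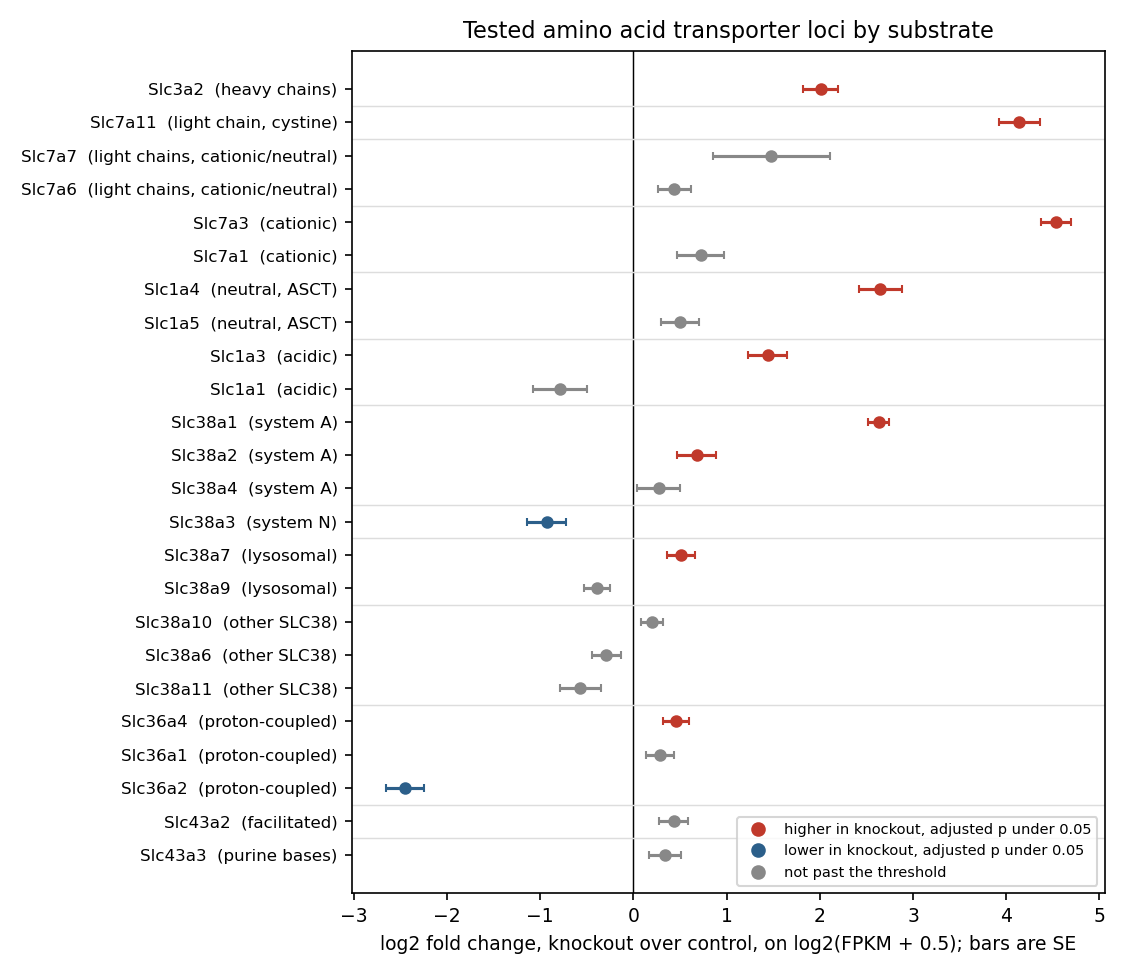
Difference in mean log2(FPKM + 0.5), knockouts minus controls, of the 24 tested amino acid transporter loci grouped by substrate, with bars of 1 SE. Red marks the 9 loci that rose, blue the 2 that fell and grey the 13 that did not pass the test.

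The 17 members below the filter were Slc1a2, Slc1a6, Slc1a7, Slc3a1, Slc7a2, Slc7a4, Slc7a8, Slc7a9, Slc7a10, Slc7a12, Slc7a13, Slc7a14, Slc7a15, Slc36a3, Slc38a5, Slc38a8 and Slc43a1. Of these, 5 were listed at 0 in every library, namely Slc7a12, Slc7a13, Slc7a15, Slc36a3 and Slc38a8. Slc7a9 and Slc7a14 had at most 0.0226 FPKM in knockouts and 0.0228 FPKM in controls. Slc7a4, placed among the CAT carriers by sequence, had 0.448, 0.794 and 0.198 FPKM in knockouts and 0.770, 0.681 and 0.668 FPKM in controls. Slc43a1 (LAT3), a facilitator for leucine, had 0.457, 0.850 and 0.457 FPKM in knockouts and 0.432, 0.649 and 0.438 FPKM in controls. Slc7a10 was the only one of these whose knockouts, at 0.116 to 0.243 FPKM, all lay above the controls, at 0 to 0.0465 FPKM. Slc3a1 was the only one whose knockouts all lay below the controls.

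Across all 41 members the summed level was 257, 283 and 343 FPKM in knockouts and 192, 200 and 194 FPKM in controls. By mean level the first 4 in knockouts were Slc38a2, Slc3a2, Slc38a10 and Slc43a3, and in controls Slc38a2, Slc38a3, Slc38a10 and Slc43a3. The gaps between Slc38a10 and Slc43a3 were within or close to the spread of each group, at 30.7 ± 2.65 and 29.9 ± 5.70 FPKM in knockouts and 26.5 ± 1.26 and 23.3 ± 2.97 FPKM in controls (SD, n = 3 each). Slc7a3 moved to rank 6 in knockouts, against 29 in controls, Slc7a11 to 10 against 33, and Slc36a2 to 21 against 5. Within the knockouts, replicates 1, 2 and 3 were the highest for 6, 9 and 9 of the 24 tested members, so no library led throughout. Slc38a1 differed by 0.01 on the log2(FPKM + 0.5) scale between knockout replicate 2 and the mean of the other knockouts, Slc3a2 by -0.07 and Slc1a4 by -0.10, while Slc7a7 differed by 2.48, Slc1a1 by -0.90 and Slc38a3 by -0.66.

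Amino acid carriers outside these families were read from a list of 18 loci, of which 9 were tested. Of the 9, 2 rose and 1 fell, against 16.1% and 19.5% of all loci. Slc6a9 (GlyT1), a glycine carrier, had 6.76, 9.91 and 13.7 FPKM in knockouts, against 2.00, 0.654 and 0.269 FPKM in controls (log2 fold change 2.97, SE 0.43, limma adjusted p = 0.0026). Slc6a6 (TauT), the taurine carrier, had 34.7, 27.1 and 28.5 FPKM in knockouts, against 13.3, 13.8 and 12.6 FPKM in controls (log2 fold change 1.15, SE 0.13, limma adjusted p = 0.00098). The groups did not overlap for either gene, and Slc6a9 reached 1 FPKM in only 1 control. Slc16a10 (TAT1), a carrier of aromatic amino acids, fell to 2.19, 3.17 and 1.63 FPKM in knockouts, against 4.50, 5.45 and 4.77 FPKM in controls (log2 fold change -0.97, SE 0.21, limma adjusted p = 0.011). The median log2 fold change of the 9 was 0.19, against -0.02 for all loci.

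A list of 11 genes of the amino acid response, chosen with earlier results of these data known, was tested in full. Of these, 7 rose and none fell, against 16.1% and 19.5% of all loci. Their median log2 fold change was 2.12. The 4 largest rises were those of Trib3 (5.20, SE 0.24, limma adjusted p = 4.7e-05), a pseudokinase that restrains ATF4, Chac1 (4.10, SE 0.37, limma adjusted p = 0.00048), an enzyme that breaks down glutathione, Nupr1 (3.44, SE 0.40, limma adjusted p = 0.0011), a stress-induced nuclear protein, and Atf5 (2.96, SE 0.17, limma adjusted p = 0.00012), a transcription factor related to ATF4. Trib3 reached 1 FPKM in no control, so it was tested only through the knockout libraries, where it had to be high, and Chac1 reached it in 2 of 3 controls. Atf4 had 135, 132 and 242 FPKM in knockouts and 34.1, 39.0 and 38.4 FPKM in controls. Eif2ak4, which encodes the amino acid sensing kinase GCN2, had 2.56, 3.13 and 3.64 FPKM in knockouts and 3.48, 2.72 and 2.92 FPKM in controls (limma adjusted p = 0.92).

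Of 31 genes through which amino acids reach mTORC1, all tested, 2 rose and 2 fell, against 16.1% and 19.5% of all loci. Their median log2 fold change was 0.03. Sesn2, the leucine sensor sestrin 2, had 6.55, 13.8 and 17.1 FPKM in knockouts, against 0.730, 0.490 and 0.844 FPKM in controls (log2 fold change 3.36, SE 0.33, limma adjusted p = 0.00059). No control reached 1 FPKM, so Sesn2 was tested only through the knockouts, where it had to be high. Its paralog Sesn1 fell to 18.9, 14.7 and 24.4 FPKM in knockouts, against 34.2, 39.4 and 32.3 FPKM in controls (log2 fold change -0.88, SE 0.19, limma adjusted p = 0.012). The Rag GTPase gene Rragc rose (log2 fold change 0.67, limma adjusted p = 0.0089). Flcn, which encodes the Rag regulator folliculin, fell (log2 fold change -0.52, limma adjusted p = 0.0084), a call lost with libraries scaled to the same sum (-0.30, limma adjusted p = 0.10).

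Among 18 enzyme genes that use the transported amino acids, 13 were tested, 6 rose and 1 fell, against 16.1% and 19.5% of all loci. The 4 largest rises were those of Bcat1 (log2 fold change 3.21), the cytosolic branched-chain aminotransferase, Cth (2.12), which makes cysteine from cystathionine, Gss (2.04), glutathione synthetase, and Gclm (1.84), the modifier subunit of the first enzyme of glutathione synthesis. Bcat1 had 9.93, 7.96 and 12.9 FPKM in knockouts, against 0.481 to 1.01 FPKM in controls (SE 0.23, limma adjusted p = 0.00028). Gclm had 23.7, 28.2 and 34.5 FPKM in knockouts, against 8.32, 8.23 and 6.36 FPKM in controls (SE 0.17, limma adjusted p = 0.00054). Bcat1 and Cth each reached 1 FPKM in only 1 control. The locus of Gclm also carries the name Gm6061. Got2, the mitochondrial aspartate aminotransferase, fell (log2 fold change -0.64, limma adjusted p = 0.037), a call lost in 8 of 17 alternatives. Glul, which encodes glutamine synthetase, did not pass (log2 fold change 0.33, limma adjusted p = 0.29).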

How the data were processed

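Total RNA of mouse hearts was sequenced in 3 knockout and 3 control libraries, prepared with the Illumina TruSeq protocol, random hexamers and Ribo-Zero rRNA removal, per the labels' protocols. The 6 PARE libraries of mitochondrial RNA were not used here. The authors deposited 1 FPKM value per locus and library, per the file names. Per the submitters' processing notes, the tools include HISAT2 2.0.1, HISAT 0.1.6, Cuffdiff, Cufflinks 2.2.1, StringTie 1.1.0, bedtools, Picard 1.23 and SAMtools 1.3, and the builds named are mm10 and GRCm38. The sources used here do not give the role of each tool, the annotation, any scaling between libraries or the use of strand.

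A count model cannot be used on FPKM. The 12181 loci that reached 1 FPKM in 3 or more of the 6 libraries were analysed as log2(FPKM + 0.5) with limma 3.58.1 under R 4.3.3. A linear model was fitted per locus, variances were moderated with a trend on the mean level, and two-sided p-values were adjusted by Benjamini-Hochberg over all loci, with a threshold of 0.05. Fold changes on this scale understate the change of low loci. Relative depth was read as the most frequent ratio of low values of pseudogene and small RNA loci (372 to 428 loci per pair, 72 to 95 within 0.02 log2 units of that ratio). Read numbers are unknown, and counting intervals are therefore left out. Gene positions and promoters are from RefSeq, GRCm38.p6. None of the 41 members shares its locus with another gene name in the files.

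Members and lists were chosen with earlier results of these data known. Values are given for each called member and each tested member with a mean of at least 5 FPKM; the others were named after their values were seen, so that all members are accounted for. From each other list up to 4 called genes with the largest changes are named, and Atf4, Eif2ak4, Glul, Got2 and the named markers were added after their values were seen. Alternatives covered pseudocount, filter, scaling, variance model, array weights, a replicate block and leaving out each library.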

Additional observations from a re-analysis of the deposited data

How the results depend on the processing

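Under 17 alternatives none of the 24 tested members changed sign, and 356 of 400 refits kept the call. Over all loci, 3229 rose and 1400 fell with libraries scaled to the same sum, and 3378 rose and 1282 fell when loci of mitochondrial DNA were removed first, where 15 members rose with either scaling and the median log2 fold change was 0.23 with the second. Without 1 library, 1212 to 2153 loci rose and 1409 to 2389 fell, and 6 to 10 members rose and 1 to 4 fell. Among loci with at least 1 FPKM in all 6 libraries 5 members rose, since Slc7a3, Slc7a11, Slc1a4 and Slc1a3 were not tested, and Slc36a2 and 3 others also dropped out. With array weights 4 members fell. Calls of Slc38a2, Slc38a7 and Slc36a4 were lost with no filter on low values (limma adjusted p = 0.073, 0.064 and 0.089). Outside the members, the call of Got2 was lost in 8 of 17 alternatives, added after the data were seen. Deviations of same-numbered libraries correlated at -0.083, -0.064 and -0.0063, and those of differently numbered ones at -0.080 to 0.12. With 3 libraries per group, such values cannot decide whether the libraries were paired. With the replicate block 1536 loci rose and 1807 fell, and 7 members rose and 2 fell, the calls of Slc38a7 and Slc36a4 being lost (limma adjusted p = 0.061 and 0.068). Depth as estimated from low values differed with genotype, which limits what low control values show. Any scaling between libraries is not given and would enter this estimate.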
